A study of Mus musculus with 6 samples.

Results

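The genes described here are the chemokines, interleukins and tumour necrosis factor (TNF) family ligands and the receptors that bind them, in mouse MLL-ENL-ERtm leukaemia cells with and without knockdown of Tet1. Members were chosen by gene symbol, with earlier results of these data known. The symbols begin with Ccl, Cxcl, Ccr, Cxcr, Cx3cr, Il, Tnfsf or Tnfrsf, or are Tnf itself. The interleukin-6 receptor axis and the interleukin-3 receptor were left out. This gave 95 members among the 13839 genes in the deposited table. By role they were 39 ligands, 53 receptors, 2 soluble antagonists and the enzyme gene Il4i1, which carries an interleukin name without encoding a cytokine. MLL-ENL-ERtm cells are mouse blood cells transformed by the MLL-ENL fusion protein joined to a tamoxifen-responsive oestrogen receptor domain, and the labels class them as acute monocytic leukaemia. All 6 libraries came from this 1 line: 3 with a non-specific hairpin (shNS) and 3 with a hairpin RNA against Tet1 (shTet1), both delivered by a pGFP-V-RS retrovirus, selected with puromycin and adapted to SILAC medium, which holds amino acids for isotope labelling. Whether tamoxifen was present is not given in the sources used here.

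Chemokines are small secreted proteins that steer leukocyte migration through G protein-coupled receptors, most of them shared among several ligands. Interleukins and TNF family ligands carry signals between blood cells: the IL-1 family through receptors with a TIR domain, most other interleukins through receptor chains that bind JAK kinases, and TNF family ligands through trimeric receptors that recruit TRAF adaptors or death domains. In monocytes and macrophages these systems set recruitment, survival and the inflammatory response, and several of them are held in check by decoy receptors and soluble antagonists.

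Each library held between 15873632 and 18592139 reads on the genes of the table, and values are FPKM, that is, reads per gene divided by its length and by the size of the library. Library values are given in the order of replicates 1, 2 and 3. Tet1, the targeted gene, had 0.489, 0.392 and 0.446 FPKM with shNS against 0.0982, 0.155 and 0.139 with shTet1, or 29.6% of the shNS mean (exact two-sided permutation p = 0.1, the smallest that 3 against 3 allows). The 9 genes chosen as markers of the labelled cell type were all present, with a summed level of 5446 to 5765 FPKM in shNS and 12018 to 17802 FPKM in shTet1. Most of the shTet1 sums was Lyz2, whose mean went from 2974 FPKM in shNS to 12894 in shTet1. Of the 9 genes 8 rose, among them Elane (mean 511 to 771 FPKM), and Mpo, which encodes myeloperoxidase, fell (mean 1463 to 816 FPKM). Of the mast cell and basophil markers, Cpa3, Mcpt8 and Fcer1a were in the table and all 3 fell, with a sum of 152 to 175 FPKM in shNS and 44.9 to 64.4 in shTet1, while Tpsab1 and Cma1 were not listed. T cell, NK cell, fibroblast and erythroid lists each summed to at most 3.22 FPKM in every library. The B cell list, of which only Cd79a and Cd22 were present, summed to 0.895 to 1.17 FPKM in shNS and 2.22 to 2.91 in shTet1. Cd22 was tested, passing the filter through the shTet1 libraries alone, and rose, from a mean of 0.505 to 2.23 FPKM. Cd79a was below the filter and went the other way, from 0.504 to 0.249 FPKM. Of the endothelial list Pecam1, which myeloid cells also express, was the sole gene present, at 29.3 to 33.5 FPKM in shNS and 19.7 to 23.2 in shTet1, and fell. In bulk RNA, fewer cells of a type and less RNA per cell cannot be told apart.

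Among both ligands and receptors, more members rose than fell in the knockdown. With limma on log2(FPKM + 1), for genes at 1 FPKM or more in at least 3 libraries, 67 members were tested, 32 rose and 9 fell (adjusted p under 0.05 over all genes tested). The background was large, since 53.1% of all 11646 genes tested were called, 19.4% higher and 33.7% lower. Among members the shares were 47.8% higher and 13.4% lower. These counts include Cx3cr1 and Tnfsf4, which passed the filter only through the group where they were higher. Under median-of-ratios scaling, which moved the median of all genes from −0.13 to −0.01 on the log2 scale, 2895 of all genes were higher and 2743 lower, against 2254 and 3925, while 34 members were higher and 9 lower. Of 25 tested ligands 11 rose and 3 fell, with a median log2 change of 0.47, and of 39 tested receptors 19 rose and 6 fell, with a median of 0.24. The median of all genes tested was −0.13, so that the ligands stood 0.60 and the receptors 0.38 above it. Both soluble antagonists, Il1rn and Il18bp, rose. The groups did not overlap, with shTet1 above shNS, for 11 of the ligands and 19 of the receptors, and with shTet1 below for 5 and 6; over all genes tested those shares were 22.6% and 39.1% (61.8% in all). The other 28 members lay below the filter and are described on their own further on. With no filter, which brings in these low genes on a scale that shrinks their change, the receptor median was 0.10 and the ligand median 0.23, with −0.10 for all genes.

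**Figure D1:**
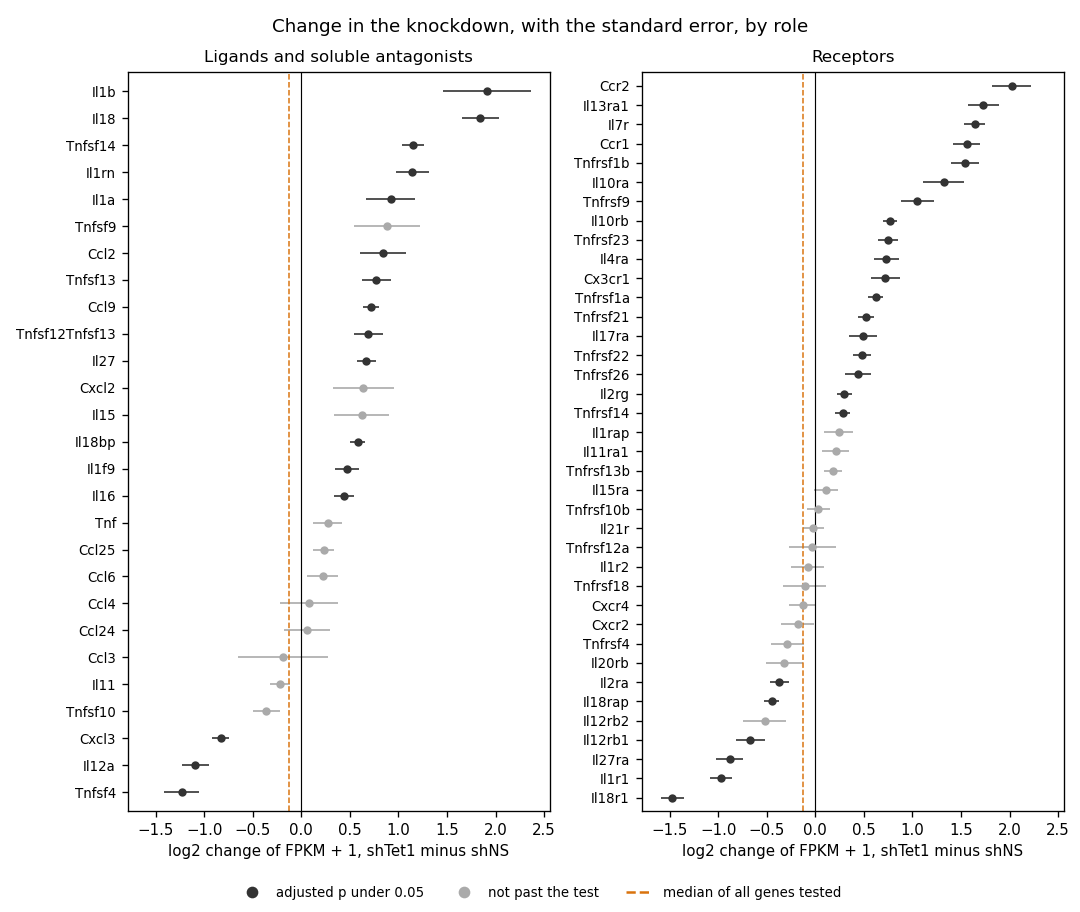
Log2 change of FPKM + 1 (shTet1 minus shNS, x axis) with its standard error for the 27 tested ligands and soluble antagonists (left) and the tested receptors reported here (right), sorted by size. Dark points passed adjusted p 0.05, and the dashed line is the median of all genes tested (-0.13). The largest rises shown are Ccr2 (2.02) and Il13ra1 (1.73) among receptors and Il1b (1.91) and Il18 (1.84) among ligands, and the largest falls are Il18r1 (-1.47) and Tnfsf4 (-1.23).

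Libraries of the same group were not alike for these genes. Among the 32 members that rose, shTet1 replicate 1 was the highest shTet1 library for 23 and shTet1 replicate 3 the lowest for 20, and shNS replicate 1 was the highest shNS library for 19. Such ranks were not counted over all genes. On the first principal component of all genes tested, shTet1 libraries lay at 35.0, 35.2 and 22.7 and shNS libraries at -30.2, -29.5 and -33.2. There too shTet1 replicate 3 lay nearest the controls. Without shTet1 replicate 3 the counts were 33 higher and 10 lower. Without both replicate 1 libraries, an alternative added after the data had been seen, they were 37 higher and 9 lower.

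The chemokine receptor genes Ccr1, Ccr2 and Cx3cr1 rose. Ccr2, the receptor for CCL2 that brings monocytes out of the marrow, stood at 130.1, 106 and 96.4 FPKM in shNS and at 588, 449.9 and 339.9 FPKM in shTet1. Every knockdown library lay above every control, and the mean was 4.15-fold higher (log2 change 2.02, SE 0.20, limma adjusted p = 0.000187). Ccr1, which binds CCL3 and, in mouse, CCL6 and CCL9, had 57.2, 50.1 and 45.8 FPKM in shNS and 175, 163 and 124 FPKM in shTet1. This 3.02-fold rise (1.56, SE 0.14, adjusted p = 0.000144) also left no overlap. In both genes the lowest knockdown value was that of replicate 3. Cx3cr1, the fractalkine receptor of patrolling monocytes, was far lower, at 0.673, 0.442 and 0.457 FPKM in shNS and 1.93, 1.65 and 1.02 FPKM in shTet1 (0.72, SE 0.15, adjusted p = 0.00585). Cx3cr1 reached 1 FPKM in the shTet1 libraries alone and passed the filter through them (limma adjusted p = 0.00496 with no filter). The CXC receptors did not pass the test. Cxcr2, the neutrophil receptor for CXCL2 and CXCL3, was at 22.7, 17.3 and 21.3 FPKM in shNS and 23.5, 15.2 and 15.6 in shTet1 (-0.18, adjusted p = 0.4), and passed without shTet1 replicate 1 (-0.38, limma adjusted p = 0.0268). Cxcr4, the CXCL12 receptor that retains cells in the marrow, was at 56.5, 47.7 and 41.3 FPKM in shNS and 50.2, 37.8 and 44.8 in shTet1. Its groups overlapped (-0.13, adjusted p = 0.474), and with median-of-ratios scaling the change was 0.01.

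Ccr1 and Ccr2 lie within 147 kb of each other on chromosome 9 (123962126 to 124109140, GRCm38). Promoter windows of Ccr1 and Ccr2 are shown because both genes moved by a large amount. Each run is the 250 bases before an annotated start, from RefSeq on GRCm38.p6, read 5′ to 3′ along the gene. The annotated Ccr2 gene begins at 124101918, so the Ccr2 window lies within the gene, before a start further in. Windows were found for 73 of the 95 members.
Ccr1 (chr9:123968693-123968942, minus strand): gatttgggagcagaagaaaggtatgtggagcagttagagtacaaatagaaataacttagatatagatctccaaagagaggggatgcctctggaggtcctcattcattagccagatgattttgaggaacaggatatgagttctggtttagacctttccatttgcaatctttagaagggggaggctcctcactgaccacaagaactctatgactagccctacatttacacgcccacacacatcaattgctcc
Ccr2 (chr9:124101933-124102182, plus strand): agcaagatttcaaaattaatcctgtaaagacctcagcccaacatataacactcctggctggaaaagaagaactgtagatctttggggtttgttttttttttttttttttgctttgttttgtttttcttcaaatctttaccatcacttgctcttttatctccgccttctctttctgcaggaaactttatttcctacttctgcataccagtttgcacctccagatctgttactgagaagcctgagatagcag
In these windows capitals would mark a match, on either strand, to any of 5 motifs: GAGGAAG (a PU.1-type ETS site), TTGCNNAA (C/EBP), TGANTCA (AP-1), TTCNNNGAA (STAT) or the NF-kB consensus. Neither window held one. Over all 32851 promoter windows of the same length, the shares with a match were 10.6, 9.56, 6.75, 7.02 and 3.9% in that order, and of the 89 member windows 9, 8, 14, 11 and 9 had one.

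**Figure D2:**
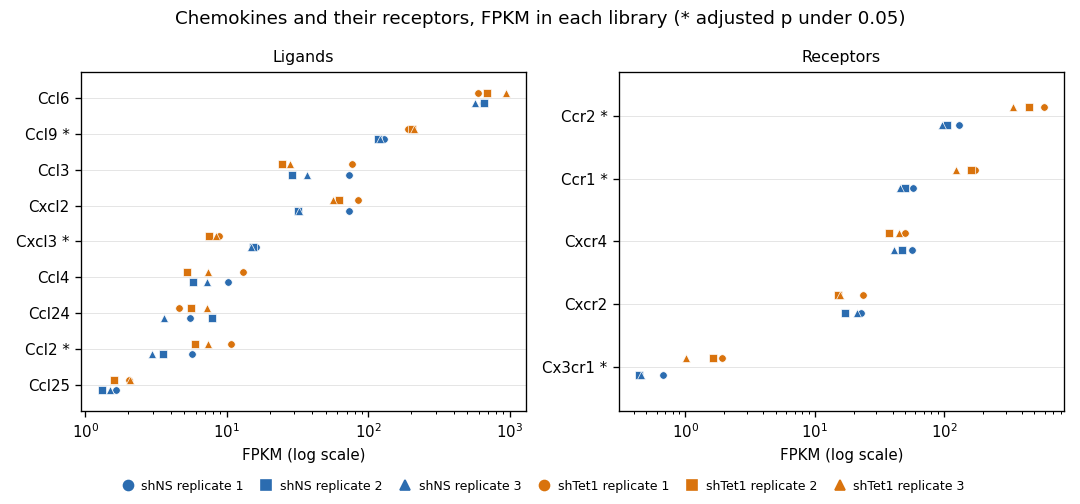
FPKM on a log axis for the tested chemokine ligands (left) and receptors (right) in each of the 6 libraries, blue for shNS and orange for shTet1, with 1 marker shape per replicate number; stars mark adjusted p under 0.05. Ccr2 and Ccr1 show separated groups, while the Ccl3 points spread mainly by replicate number, with replicate 1 highest in both groups. For Cxcl2 replicate 1 is also highest in both groups. Its replicates 2 and 3 lie at 31.6 and 32.5 FPKM in shNS and at 61.7 and 55.8 FPKM in shTet1.

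Of 9 tested chemokine ligands 2 rose, 1 fell and 6 were not past the test. The shares were 22.2% higher and 11.1% lower, against 19.4% and 33.7% of all genes tested. The share that rose was thus near that of all genes. Ccl9, a myeloid chemokine that signals through CCR1, was at 128, 116 and 121 FPKM in shNS and at 190.4, 204 and 210.0 FPKM in shTet1. The groups were well separated (1.66-fold; log2 change 0.72, SE 0.08, limma adjusted p = 0.000292). Ccl2, the main CCR2 ligand, had 5.67, 3.53 and 2.94 FPKM in shNS and 10.6, 5.99 and 7.34 FPKM in shTet1. The lowest knockdown library exceeded the highest control by little, and the call (0.84, SE 0.24, adjusted p = 0.0188) was lost without shNS replicate 2 or shNS replicate 3, with adjusted p up to 0.0695 over the alternatives. Ccl6, the most abundant member, had 649, 658 and 564 FPKM in shNS and 599, 686 and 935 in shTet1, and its groups overlapped (0.22, adjusted p = 0.271). Ccl6 and Ccl9 are close relatives, so that reads could be shared between them. The macrophage inflammatory protein genes Ccl3 and Ccl4 followed the replicate number more than the group. Ccl3 was at 72.7, 29 and 36.9 FPKM in shNS and 76.4, 24.3 and 28 FPKM in shTet1 (-0.19, adjusted p = 0.749). Ccl4 was at 10.1, 5.75 and 7.18 FPKM in shNS and 13, 5.19 and 7.35 FPKM in shTet1 (0.08, adjusted p = 0.837). Replicate 1 was the highest library of both groups in each. The eotaxin gene Ccl24 was at 5.46, 7.86 and 3.58 FPKM in shNS and 4.55, 5.53 and 7.28 FPKM in shTet1, with overlapping groups (0.06, adjusted p = 0.839). Ccl25, a CCR9 ligand, ranged from 1.3 to 1.65 FPKM in shNS and from 1.59 to 2.08 in shTet1 (0.23, adjusted p = 0.129, or 0.0416 with median-of-ratios scaling).

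The neighbouring neutrophil chemokine genes Cxcl2 and Cxcl3, which lie within 120 kb on chromosome 5 and both signal through CXCR2, differed from each other. Cxcl3 was at 16.1, 15.4 and 14.8 FPKM in shNS and at 8.81, 7.5 and 8.35 FPKM in shTet1. It fell to 0.534 of the control mean with no overlap (log2 change −0.83, SE 0.09, limma adjusted p = 0.000268). Cxcl2 was at 72.6, 31.6 and 32.5 FPKM in shNS and at 84.4, 61.7 and 55.8 FPKM in shTet1. The shNS replicate 1 value lay inside the knockdown range, so the groups overlapped (0.64, SE 0.31, adjusted p = 0.116). With the replicate number as a block Cxcl2 passed (adjusted p = 0.00695), as it did without both replicate 1 libraries. The promoters of this pair and of Ccl9 are printed because they hold matches to the NF-kB consensus close to the start, in capitals.
Cxcl2 (chr5:90903649-90903898, plus strand): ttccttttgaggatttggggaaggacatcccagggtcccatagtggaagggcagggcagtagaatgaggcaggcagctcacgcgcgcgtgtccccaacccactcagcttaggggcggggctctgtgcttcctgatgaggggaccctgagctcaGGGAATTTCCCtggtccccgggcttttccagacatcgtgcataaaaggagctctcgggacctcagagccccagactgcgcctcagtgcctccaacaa
Cxcl3 (chr5:90785851-90786100, plus strand): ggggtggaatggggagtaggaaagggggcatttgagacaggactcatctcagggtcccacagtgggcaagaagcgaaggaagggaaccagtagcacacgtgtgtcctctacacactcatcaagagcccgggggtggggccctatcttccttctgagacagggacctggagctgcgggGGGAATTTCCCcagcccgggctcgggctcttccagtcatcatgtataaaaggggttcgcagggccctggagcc
Ccl9 (chr11:83578637-83578886, minus strand): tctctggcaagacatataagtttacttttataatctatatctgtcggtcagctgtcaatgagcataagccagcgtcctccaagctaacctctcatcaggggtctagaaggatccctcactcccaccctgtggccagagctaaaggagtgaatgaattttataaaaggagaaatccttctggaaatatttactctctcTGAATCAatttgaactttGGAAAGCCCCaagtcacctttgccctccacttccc
The Cxcl2 and Cxcl3 windows carry the same capital run GGGAATTTCCC, which matches in 2 overlapping registers, from position -97 in Cxcl2 and from -73 in Cxcl3 counted back from the start. In Ccl9 the NF-kB match runs from -35 to -26, and the other capitals, from -53 to -47, mark an AP-1 match. A match describes letters in the window and not binding.

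In the IL-1 family all 4 tested ligands and both soluble antagonists rose, while 3 of the tested receptor chains fell. Of its 11 tested members 54.5% rose and 27.3% fell, where 19.4% and 33.7% of all genes tested did. Il1b, the main secreted IL-1 of monocytes, was at 87.5, 43.3 and 31.1 FPKM in shNS and at 340.3, 169 and 113 FPKM in shTet1. The groups were apart although each spread about its mean, 54 ± 29.6 and 208 ± 118 FPKM (SD, n = 3 each; log2 change 1.91, SE 0.45, limma adjusted p = 0.00927). In both groups replicate 1 was the highest and replicate 3 the lowest library, and with the replicate block the adjusted p was 2.85e-05. Il1a, which encodes IL-1 alpha, had 10, 6.25 and 4.44 FPKM in shNS and 16.6, 11.5 and 12.4 FPKM in shTet1 (0.92, SE 0.25, adjusted p = 0.0156). Il18, a ligand that drives interferon gamma in lymphocytes, was at 3.29, 3.29 and 2.73 FPKM in shNS and at 17.6, 14.9 and 9.67 FPKM in shTet1. It was 4.53-fold higher with no overlap (1.84, SE 0.19, adjusted p = 0.000254). Il1f9, the older name of the IL-36 gamma gene, was at 23.6, 26.6 and 23.1 FPKM in shNS and at 39.9, 33 and 30.2 FPKM in shTet1. That rise was small but left no overlap (0.47, SE 0.12, adjusted p = 0.0102).

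Of the antagonists, Il1rn, which blocks the IL-1 receptor, was at 12.5, 17.2 and 15 FPKM in shNS and at 27.3, 34.2 and 41.7 FPKM in shTet1 (1.14, SE 0.17, limma adjusted p = 0.00101). Il18bp, a secreted trap for IL-18, was at 3.6, 3.76 and 3.55 FPKM in shNS and at 6.04, 5.93 and 5.79 FPKM in shTet1 (0.58, SE 0.08, adjusted p = 0.000919). Neither gene's groups overlapped, and the Il18bp libraries lay close together within each group.

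Of the 5 tested receptor chains for IL-1 and IL-18, Il18r1, Il18rap and Il1r1 fell. Il18r1, the ligand-binding chain of the IL-18 receptor, was at 6.45, 4.86 and 5.29 FPKM in shNS and at 1.61, 1.29 and 1.18 FPKM in shTet1. Its mean fell to 0.246 of the control level (log2 change −1.47, SE 0.12, limma adjusted p = 0.000109). Il18rap, the accessory chain, was more abundant and moved less, from 28.2, 26.5 and 27.5 FPKM in shNS to 21.4, 19.8 and 18.3 FPKM in shTet1 (-0.45, SE 0.08, adjusted p = 0.00308). Il1r1, the signalling IL-1 receptor, was at 3.36, 3.45 and 3.76 FPKM in shNS and at 1.12, 1.24 and 1.58 FPKM in shTet1 (-0.97, SE 0.11, adjusted p = 0.000324). For all 3 the knockdown libraries lay below every control. The decoy receptor gene Il1r2 was at 24, 16.2 and 16.5 FPKM in shNS and 19.9, 18.9 and 14.5 in shTet1, with overlapping groups (-0.08, adjusted p = 0.731), and the sign turned to 0.05 with median-of-ratios scaling. The shared accessory chain gene Il1rap ranged from 2.59 to 3.24 FPKM in shNS and from 2.76 to 4.49 in shTet1 (0.24, adjusted p = 0.2), and passed without shTet1 replicate 1 and without both replicate 1 libraries. Il1r2, Il1r1, Il1rl1, Il18r1 and Il18rap form 1 cluster of 467 kb on chromosome 1 (40084692 to 40551707), in which 3 members fell, Il1r2 was not past the test and Il1rl1 was below the filter. The mast cell and basophil markers fell in the same libraries, as given above, and their part in the lower receptor levels was not tested.

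**Figure D3:**
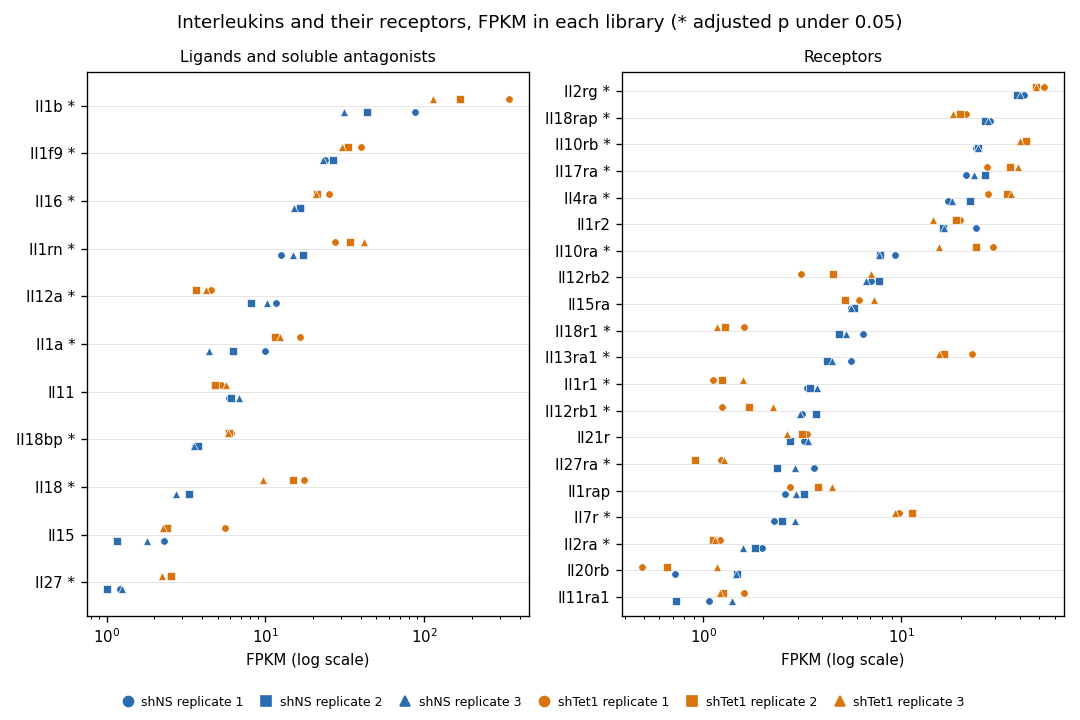
FPKM on a log axis in each library for the tested interleukins and soluble antagonists (left) and interleukin receptors (right), coloured and shaped as in the plot of chemokines, with stars for adjusted p under 0.05. Il1b and Il18 separate upwards, and Il18r1, Il1r1 and Il27ra downwards; replicate 1 is the highest Il1b library in both groups.

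Among the other interleukins, members of the IL-12 family divided. Il12a, which encodes the p35 subunit of IL-12, was at 11.7, 8.1 and 10.3 FPKM in shNS and at 4.54, 3.68 and 4.22 FPKM in shTet1. It fell to 0.413 of the control mean with no overlap (log2 change −1.09, SE 0.14, limma adjusted p = 0.000528). Il27, which encodes the p28 subunit of IL-27, was lower in level, at 1.22, 1.01 and 1.26 FPKM in shNS, and rose to 2.51, 2.55 and 2.23 FPKM in shTet1 (0.67, SE 0.10, adjusted p = 0.00116). Its partner subunit gene Ebi3, which the symbol rule does not take, rose from 28.9 ± 0.857 to 42.9 ± 4.26 FPKM (SD, n = 3 each; 0.55, adjusted p = 0.0018). Of their receptor chains, Il12rb1 and Il27ra fell. Il12rb1, a chain of the IL-12 and IL-23 receptors, had 3.14, 3.72 and 3.09 FPKM in shNS and 1.25, 1.7 and 2.24 FPKM in shTet1 (-0.67, SE 0.15, adjusted p = 0.00595). Il27ra had 3.62, 2.36 and 2.92 FPKM in shNS and 1.23, 0.908 and 1.28 FPKM in shTet1 (-0.88, SE 0.14, adjusted p = 0.00149). Il12rb2, the second IL-12 receptor chain, was at 7.06, 7.7 and 6.67 FPKM in shNS and at 3.12, 4.53 and 7.03 FPKM in shTet1. There shTet1 replicate 3 lay within the control range, and the gene did not pass (-0.52, adjusted p = 0.0767), but did with the replicate block (0.0498) and without shTet1 replicate 3 (0.00516). Il16, a ligand of CD4 made as a larger precursor, rose from 16.8, 16.6 and 15.1 FPKM in shNS to 25.2, 21.2 and 20.7 FPKM in shTet1 (0.44, SE 0.10, adjusted p = 0.00731).

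Il11 and Il15 missed the test without the block and passed with it. Il11, a cytokine that signals through gp130, was at 5.89, 6.08 and 6.87 FPKM in shNS and 5.29, 4.84 and 5.65 FPKM in shTet1 (-0.22, limma adjusted p = 0.0924, or 0.042 with the replicate block). Those groups did not overlap, although the gap between them was narrow. Il15, a growth factor for NK and memory T cells, was at 2.29, 1.17 and 1.81 FPKM in shNS and 5.53, 2.39 and 2.28 FPKM in shTet1, where replicate 1 stood well above the others (0.62, adjusted p = 0.0919, or 0.0115 with the replicate block). Its private receptor chain gene Il15ra was at 5.57, 5.8 and 5.55 FPKM in shNS and 6.12, 5.23 and 7.33 FPKM in shTet1, again overlapping (0.11, adjusted p = 0.445).

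Receptor chains for IL-4, IL-7, IL-10, IL-13 and IL-17 rose. Il7r, best known from lymphocyte development, was at 2.29, 2.51 and 2.9 FPKM in shNS and at 9.81, 11.3 and 9.34 FPKM in shTet1. The 3.95-fold difference was even across libraries (log2 change 1.64, SE 0.11, limma adjusted p = 5.05e-05). Il13ra1, which pairs with the IL-4 receptor alpha chain, was at 5.6, 4.21 and 4.46 FPKM in shNS and at 22.7, 16.5 and 15.5 FPKM in shTet1 (3.83-fold; 1.73, SE 0.16, adjusted p = 0.000142). Il4ra itself had 17.3, 22.2 and 18.1 FPKM in shNS and 27.4, 34.5 and 35.8 FPKM in shTet1 (0.73, SE 0.13, adjusted p = 0.0026). The groups of all 3 genes stood apart. Il10ra, the ligand-binding chain for the anti-inflammatory IL-10, was at 9.31, 7.86 and 7.73 FPKM in shNS and at 29.3, 23.8 and 15.5 FPKM in shTet1. The knockdown values spread widely but all exceeded the controls (2.75-fold; 1.32, SE 0.21, adjusted p = 0.00137). Il10rb, the chain shared with other IL-10 family receptors, rose from 23.8, 24.4 and 24.6 FPKM to 43.3, 42.8 and 39.9 FPKM (0.77, SE 0.07, adjusted p = 0.000178). Il17ra, the common IL-17 receptor chain, was at 21.2, 26.5 and 23.4 FPKM in shNS and 27.1, 35.7 and 38.8 FPKM in shTet1. Its groups nearly touched (0.49, SE 0.14, adjusted p = 0.022), and the call was lost on leaving out any 1 of 4 libraries (replicates 1 and 3 of shNS, 2 and 3 of shTet1), with adjusted p up to 0.0793.

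The receptors built on the common gamma chain went in both directions. Il7r (log2 change 1.64) and Il4ra (0.73), described above, rose, and Il2ra was the sole call lower. Il2rg, the gamma chain itself, was at 42, 38.7 and 39.7 FPKM in shNS and at 52.6, 48 and 48 FPKM in shTet1 (0.30, SE 0.08, limma adjusted p = 0.0139), a call lost without shNS replicate 2 or shNS replicate 3. Il2ra, the high-affinity IL-2 receptor chain, fell from 1.97, 1.83 and 1.59 FPKM to 1.22, 1.12 and 1.14 FPKM (-0.37, SE 0.10, adjusted p = 0.0151), a call lost on leaving out either of replicates 1 and 2 of shNS or replicate 2 of shTet1. Il21r, the IL-21 receptor, ranged from 2.75 to 3.38 FPKM in shNS and from 2.66 to 3.33 in shTet1 (-0.02, and 0.08 with median-of-ratios scaling). Il11ra1 (0.726 to 1.39 FPKM in shNS, 1.22 to 1.61 in shTet1) and Il20rb (0.716 to 1.48 and 0.491 to 1.17, past the test without shNS replicate 1) did not pass, nor did the amino acid oxidase gene Il4i1 (0.694 to 1.42 and 1.02 to 1.62 FPKM). In total 7 of 20 tested interleukin receptors rose and 6 fell (35% and 30%), against 6 and 1 of 9 tested interleukin ligands (66.7% and 11.1%). Over all genes tested 19.4% rose and 33.7% fell, so the share of receptors that fell was near that of all genes.

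Of 13 tested TNF receptors 8 rose (61.5%, against 19.4% of all genes tested) and 5 were not past the test. None fell, where 33.7% of all genes tested did. Tnfrsf1b, which encodes TNF receptor 2, was at 22.5, 25.8 and 21.5 FPKM in shNS and at 75.3, 78.6 and 56.5 FPKM in shTet1. Its mean was 3.01-fold higher with no overlap (log2 change 1.54, SE 0.14, limma adjusted p = 0.000125). Tnfrsf1a, the death domain receptor for TNF, rose less, from 35, 36.3 and 35.5 FPKM to 52.6, 59.6 and 53.8 FPKM (0.62, SE 0.08, adjusted p = 0.000552). Tnfrsf9, the costimulatory receptor 4-1BB, was at 9.88, 8.27 and 5.65 FPKM in shNS and at 18.8, 15.5 and 17.1 FPKM in shTet1 (2.16-fold; 1.05, SE 0.17, adjusted p = 0.00182). These groups were separate too. Tnfrsf21, or death receptor 6, was at 19.1, 19.7 and 19.1 FPKM in shNS and 29.4, 29.1 and 26.2 FPKM in shTet1 (0.52, SE 0.08, adjusted p = 0.0012). Tnfrsf14, the receptor HVEM, went from 30.2, 28.8 and 29.2 FPKM to 38, 35 and 34.8 FPKM (0.28, SE 0.08, adjusted p = 0.0154), a call lost without shNS replicate 2 or shNS replicate 3.

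The decoy TRAIL receptor genes Tnfrsf22 and Tnfrsf23 and their neighbour Tnfrsf26, which lie within 79 kb on chromosome 7, rose together. Tnfrsf23 was at 7.28, 6.82 and 6.33 FPKM in shNS and at 13.1, 11 and 12.3 FPKM in shTet1 (0.75, SE 0.10, limma adjusted p = 0.000595). Tnfrsf22 was at 3.45, 3.1 and 2.94 FPKM in shNS and at 5.01, 4.64 and 4.79 FPKM in shTet1 (0.48, SE 0.09, adjusted p = 0.00331). Tnfrsf26 was at 12.6, 9.54 and 9.57 FPKM in shNS and at 16.9, 13.8 and 13.5 FPKM in shTet1 (0.44, SE 0.13, adjusted p = 0.0238, lost without shNS replicate 2 or 3). None of the 3 overlapped between groups, but they are near copies of each other, between which reads may be shared. The signalling TRAIL receptor gene Tnfrsf10b was at 5.5, 5.76 and 6.63 FPKM in shNS and 6.16, 5.23 and 6.97 FPKM in shTet1 (0.03, adjusted p = 0.854). Tnfrsf13b, the receptor TACI, was at 21.1, 19.2 and 19 FPKM in shNS and 20.8, 24 and 22.8 FPKM in shTet1 (0.18, adjusted p = 0.119, or 0.0241 with median-of-ratios scaling). Tnfrsf12a, the TWEAK receptor, was at 3.06, 4.24 and 5.09 FPKM in shNS and 2.47, 4.83 and 5.03 in shTet1, a spread by replicate number (-0.03, and 0.08 with median-of-ratios scaling). The T cell costimulatory receptor genes Tnfrsf4 (1.13 to 2.31 FPKM in shNS, 0.91 to 1.31 in shTet1) and Tnfrsf18 (1.24 to 2.03 and 0.75 to 2.25) did not pass.

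**Figure D4:**
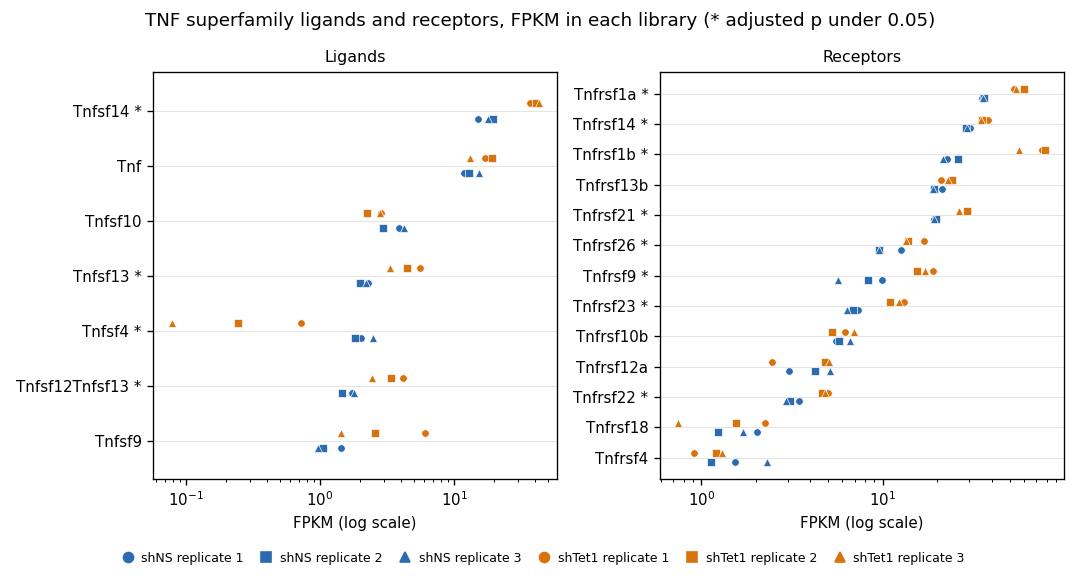
FPKM on a log axis in each library for the tested TNF family ligands (left) and receptors (right), coloured and shaped as in the other plots by library, with stars for adjusted p under 0.05. Tnfrsf1b separates most among the receptors, and Tnfsf4 falls to between 0.0783 and 0.722 FPKM in shTet1.

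Of 7 tested TNF family ligands 3 rose, 1 fell and 3 were not past the test. The shares were 42.9% higher and 14.3% lower, against 19.4% and 33.7% of all genes tested. Tnf itself had 11.8, 13 and 15.3 FPKM in shNS and 16.9, 19.2 and 13.2 FPKM in shTet1. The groups overlapped through shTet1 replicate 3 (0.27, SE 0.15, limma adjusted p = 0.151), and the gene passed without that library (0.031). Tnfsf14, or LIGHT, which binds the HVEM receptor, was at 15, 19.5 and 18 FPKM in shNS and at 36.7, 40.5 and 42.7 FPKM in shTet1. It was 2.28-fold higher with no overlap (1.15, SE 0.11, adjusted p = 0.000182). Tnfsf13, the B cell factor APRIL, rose from 2.28, 1.98 and 2.21 FPKM to 5.61, 4.47 and 3.33 FPKM (0.77, SE 0.15, adjusted p = 0.00409). The read-through gene Tnfsf12Tnfsf13 had a similar change (0.69, adjusted p = 0.00692), from 1.73, 1.46 and 1.78 to 4.18, 3.39 and 2.44 FPKM, but it overlaps Tnfsf13 and Tnfsf12 and the levels of the 3 cannot be taken as independent. Tnfsf4, or OX40 ligand, was at 2.04, 1.84 and 2.47 FPKM in shNS and at 0.722, 0.244 and 0.0783 FPKM in shTet1. All knockdown libraries were below the controls, with a mean of 0.165 of theirs (-1.23, SE 0.18, adjusted p = 0.00102, on a scale that shrinks the change of so low a gene). Tnfsf4 reached 1 FPKM in the shNS libraries alone and passed the filter through them (limma adjusted p = 0.00105 with no filter). Tnfsf9, the ligand of 4-1BB, was at 1.44, 1.06 and 0.963 FPKM in shNS and at 6.12, 2.56 and 1.43 FPKM in shTet1. The replicate 3 value of shTet1 lay within the control range (0.88, SE 0.34, adjusted p = 0.0604), and the gene passed with the replicate block (0.0134). Tnfsf10, or TRAIL, was at 3.87, 2.93 and 4.27 FPKM in shNS and at 2.83, 2.25 and 2.82 FPKM in shTet1, a narrow separation (-0.36, SE 0.14, adjusted p = 0.0532, or 0.0101 with the replicate block).

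Set beside each other, ligands and their receptors did not move as pairs throughout. Tnfsf14 and Tnfrsf14, Ccl2 and Ccr2, and Ccl9 and Ccr1 rose on both sides. Of these, the Tnfrsf14 and Ccl2 calls were lost without shNS replicate 2 or shNS replicate 3. Il18 and Il27 rose where Il18r1, Il18rap and Il27ra fell, and Il1b and Il1a rose where Il1r1 fell. Il12a fell with Il12rb1. Tnf did not pass where Tnfrsf1a and Tnfrsf1b rose, Ccl3 and Ccl4 did not pass where Ccr1 rose, and Cxcl3 fell where Cxcr2 did not pass. Tnfsf4 fell where its receptor gene Tnfrsf4 did not pass, and Tnfsf9 did not pass where Tnfrsf9 rose. For Tnfsf10 and Tnfrsf10b, and for Il15 and Il15ra, neither side passed. Not every possible pair is listed. All these values come from the same libraries, in which the labelled cell's markers also differed as given above, and the part of those markers in the receptor and ligand levels was not tested.

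The 28 members below the filter were 14 ligands and 14 receptors, with values from 0 to 2.01 FPKM and at most 133 reads in a library. With limma-voom on the recovered reads, 21 of them could be tested, 5 were higher and 3 lower, against 23.8% higher and 22.7% lower (46.5% in all) of the 13198 genes in that fit. Tnfrsf11a, or RANK, the receptor that drives osteoclast formation, stood out in size, with 14, 14 and 15 reads in shNS and 80, 119 and 133 reads in shTet1, or 0.164 ± 0.0135 and 1.29 ± 0.394 FPKM (SD, n = 3 each). Its groups were far apart (voom log2 change 3.02, limma-voom adjusted p = 0.000281). Il33, an alarmin of the IL-1 family, had 24, 31 and 28 reads in shNS and 41, 67 and 70 in shTet1 (1.20, limma-voom adjusted p = 0.014). Ccl7, a further CCR2 ligand next to Ccl2, had 7, 4 and 4 reads against 17, 10 and 15 (1.55, limma-voom adjusted p = 0.0121). Tnfrsf8, or CD30, had 11, 14 and 5 reads against 19, 21 and 21 (1.25, limma-voom adjusted p = 0.0279), and Tnfsf15 3, 6 and 7 reads against 28, 11 and 11 (1.67, limma-voom adjusted p = 0.0272, but 0.13 with limma on log2(FPKM + 1) with no filter).

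The low members that fell were Ccr4, Il17re and Tnfrsf13c. Ccr4, the receptor for CCL17 and CCL22, had 26, 25 and 28 reads in shNS and 9, 6 and 10 in shTet1 (-1.48, limma-voom adjusted p = 0.00556). Tnfrsf13c, the BAFF receptor, had 25, 19 and 24 reads against 5, 5 and 12 (-1.53, limma-voom adjusted p = 0.0128). Il17re, an IL-17C receptor chain, had 12, 19 and 15 reads against 7, 2 and 1 (-2.18, limma-voom adjusted p = 0.0122). None of the 3 overlapped between groups. The 13 tested without a call were Ccl22, Ccl28, Cxcl10, Tnfsf12, Tnfsf13b, Tnfsf8, Ccr7, Cxcr6, Il11ra2, Il17rd, Il1rl1, Il31ra and Il5ra. Il11ra2 had the same reads as Gm2002 and Gm13305 throughout, so its level cannot be assigned to it alone. Ccl5, a T cell and monocyte attractant, had 10, 6 and 18 reads in shNS and 1, 4 and 1 in shTet1, too few for that fit, as were the reads of Ccl17, Cxcl9, Cxcl15, Il17c, Ccr10 and Cxcr5. On log2(FPKM + 1) with no filter, Ccl5 and Cxcr5 were lower and Ccr10 higher (limma adjusted p = 0.0132, 0.0335 and 0.0448), where 17.8% of 13839 genes were higher and 29.5% lower (47.3% in all).

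**Figure D5:**
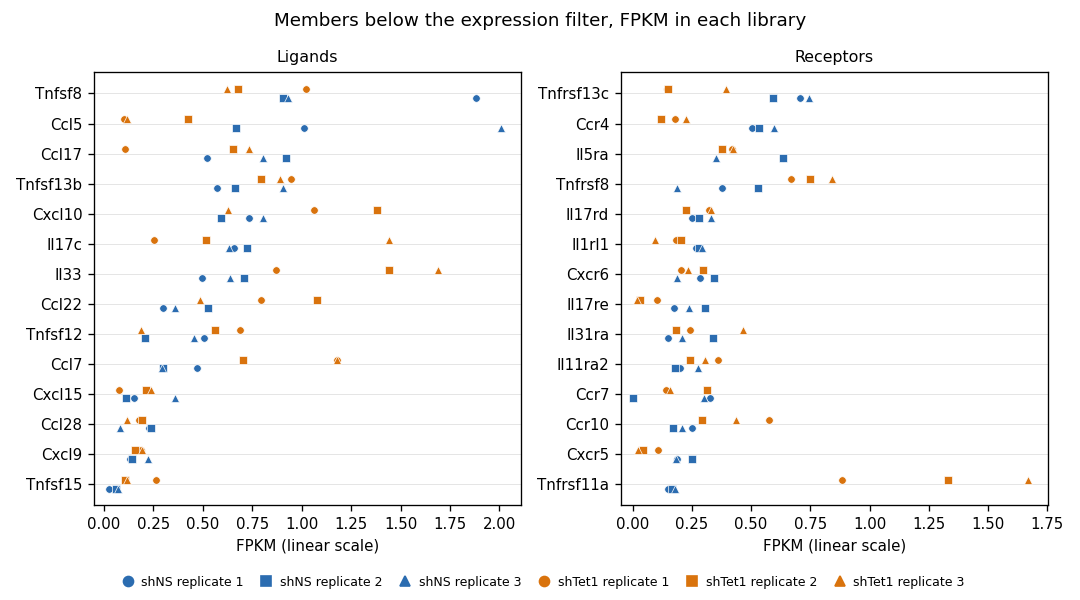
FPKM on a linear axis in each library for the 14 ligands (left) and 14 receptors (right) below the expression filter, coloured and shaped as in the other plots by library. Tnfrsf11a is the member whose groups lie farthest apart, with shNS between 0.15 and 0.177 FPKM and shTet1 between 0.882 and 1.67 FPKM.

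Signalling genes behind these receptors, from lists chosen by pathway with earlier results of these data known, changed in both directions. Over 103 tested genes 37 rose and 27 fell (35.9% and 26.2%), where 19.4% and 33.7% of all genes tested did. Under median-of-ratios scaling 43 rose and 16 fell, where 24.9% and 23.6% of all genes tested did. Fewer falls under that scaling were thus seen over all genes too. Of 24 tested genes of chemokine receptor signalling 11 rose and 2 fell (45.8% and 8.33%). The regulatory subunits of phosphoinositide 3-kinase gamma, Pik3r5 and Pik3r6, went from 8.5 ± 0.503 to 24.8 ± 3.47 FPKM (log2 change 1.43, limma adjusted p = 7.77e-05) and from 6.06 ± 0.382 to 15.9 ± 1.12 FPKM (1.26, adjusted p = 6.18e-05). The receptor kinase gene Grk5 rose by 1.39, and the falls were Rgs18 (-1.20), which speeds G protein shut-off, and the migration adaptor gene Elmo1 (-0.77).

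Of 25 JAK, STAT and SOCS genes 10 rose and 8 fell (40% and 32%), or 12 and 6 under median-of-ratios scaling. Over all genes tested the shares were 19.4% and 33.7%, or 24.9% and 23.6% under that scaling. Socs3, a feedback inhibitor of JAK signalling, rose from 7.56 ± 0.479 to 28.8 ± 6.34 FPKM (1.78, limma adjusted p = 0.00012), with Stat6 (0.86), which acts behind the IL-4 and IL-13 receptors, and Stat3 (0.59). Stat4, which acts behind the IL-12 receptor, fell from 5.07 ± 1.39 to 1.35 ± 0.272 FPKM (-1.35, adjusted p = 0.000703), and the STAT5-induced inhibitor genes Cish (-1.15) and Socs2 (-1.08) fell too. Of 14 genes of IL-1 receptor signalling 5 rose and 3 fell (35.7% and 21.4%). Peli2 (1.20), Map3k8 (1.09) and the kinase gene Irak2 (0.96) rose. Irak3 (-1.02), which encodes the inhibitory IRAK-M, the inhibitory receptor gene Sigirr (-0.36) and Irak1 (-0.24) fell. The Sigirr and Irak1 calls were lost under median-of-ratios scaling, which left 1 fall. Irak3 reached 1 FPKM in the shNS libraries alone.

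Of 16 tested TNF receptor adaptors and effectors 6 rose and 5 fell (37.5% and 31.2%, against 19.4% and 33.7% of all genes tested). Traf5 (0.92), the ubiquitin ligase gene Birc3 (0.76) and Tank (0.65) were among those that rose. Traf5 reached 1 FPKM in the shTet1 libraries alone. Traf4 (-0.93), the necroptosis gene Mlkl (-0.49) and Traf3 (-0.38) were among those that fell. Under median-of-ratios scaling the calls of Traf2, Traf3 and Ripk3 were lost, which left 2 falls. Factors that bind cytokine mRNA and control its decay had 3 rises and 6 falls among 11 (27.3% and 54.5%). There were 3 falls under median-of-ratios scaling, where Hnrnpd, Khsrp and Tial1 were not called. Zfp36l1 (1.61), Zfp36 (1.20) and Zc3h12a (0.50) rose, and Tia1, Hnrnpd and Khsrp fell by 0.54, 0.54 and 0.51 on the log2 scale. Zfp36l2, of the same mRNA-destabilising family as Zfp36 and Zfp36l1 and named in addition to the 3 largest changes after its values were seen, fell from 148 ± 9.63 to 113 ± 6.35 FPKM (−0.39, limma adjusted p = 0.00574). Zfp36 and Zfp36l1 had wide spreads, from 47.2 ± 15.2 to 112 ± 45.1 FPKM and from 19.9 ± 6.38 to 64.5 ± 26.5 FPKM (SD, n = 3 each). Family members under other symbols had 2 rises and 3 falls among 13 tested (15.4% and 23.1%). The rises were the death receptor gene Fas (1.31) and Ebi3. The falls were Cd27 (-1.21), the platelet chemokine gene Ppbp (-0.74) and Ltb (-0.50), where the Ltb call was lost under median-of-ratios scaling.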

How the data were processed

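Polyadenylated RNA of 6 libraries was read as single-end 51-bp reads from a directional kit, per the labels' protocols and design text. The submitters' processing notes name GRCm38; which aligner, counter and test were used, and whether counting used strand, is not stated. The authors deposited 1 table: FPKM per library (a unit inferred from the values), mean signal per group, fold change (ratio), its log2 value, p-values and adjusted p-values. Only the FPKM columns enter the results; the deposited group means served to recover reads, whole for 100% of values (tolerance 0.001 read). Replicates differed beyond counting noise (chi-square per df 4.5 to 36.5).

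limma 3.58.1 (R 4.3.3) with an intensity trend was fitted to log2(FPKM + 1) for genes at 1 FPKM in at least 3 libraries, two-sided, with Benjamini-Hochberg adjustment over all genes tested; the code was tested on simulated data. Members and lists were chosen with earlier results of these data known. Alternatives were median-of-ratios scaling, pseudocount 0.1, no filter, the replicate block, limma-voom on recovered reads (10 reads in at least 3 libraries), leaving out each library and, added after seeing the data, both replicate 1 libraries. Replicate numbers are those of the sample titles. Deviations of same-numbered libraries correlated across genes (0.61, 0.36 and 0.21), but so did those of shNS replicate 2 and shTet1 replicate 3 (0.34); the reported fit has no block, and blocked values are given where they change a call. The labels do not say that replicates were separate cultures: p-values measure the spread of these libraries, possibly technical. A member that is counted but not reported here aside, every tested member is named, with library values where a group mean reaches 5 FPKM or a call has an absolute log2 change of 1; of each pathway list, up to 3 calls per direction are named. Positions and promoters are RefSeq, GRCm38.p6.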

Additional observations from a re-analysis of the deposited data

How the results depend on the processing

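Over the alternatives, members that rose numbered 27 to 38 (32 as reported) and members that fell 8 to 14 (9 as reported). With no filter 14 members and 10 receptors were lower and the receptor median was 0.10; with limma-voom it was 0.42. The replicate block gave 35 higher and 12 lower members, with 5 ligands lower; its 6 added calls are named in the report and it changed no other call of a member. Pathway genes that fell numbered 16 with median-of-ratios scaling and 17 without shNS replicate 3 or shTet1 replicate 2, against 27. No called member changed sign. Of members not called, the sign turned with median-of-ratios scaling and limma-voom for Il1r2 (0.05 in both), Tnfrsf12a (0.08 and 0.09), Cxcr4 (0.01 in both) and Il21r (0.08 and 0.11). Without both replicate 1 libraries it turned for Ccl4 (−0.05), Il1r2 (0.02), Tnfrsf10b (−0.03) and Tnfrsf12a (0.07). Leaving out single libraries turned it for 9 members, whose changes then ranged as follows: Ccl24 (−0.18 to 0.30), Ccl3 (−0.69 to 0.19), Ccl4 (−0.24 to 0.35), Il1r2 (−0.17 to 0.10), Tnfrsf10b (−0.06 to 0.12), Tnfrsf12a (−0.19 to 0.23), Tnfrsf18 (−0.32 to 0.13), Il4i1 (−0.08 to 0.18), Il21r (−0.09 to 0.05). The cause was not tested.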
